A study of Homo sapiens with 4 samples.

Results

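The sequences described here carry an adenosine with G 2 nt and A 1 nt before it and C after it, taken from transcripts in which miCLIP2 had found no modification of it in HEK293T, an established line of human embryonic kidney cells. Members were the oligonucleotides of the class designed around unmodified adenosines whose bases 49 to 53 read GAAC and then A, C or T, with T written for U as in the deposited table. The rule took 606 of 11999 oligonucleotides. They represented 202 of 3949 different sequences, each present as 3 copies told apart by a sequence tag, and by motif there were 73 GAACA, 97 GAACC and 32 GAACT loci. Copies of 1 sequence were summed and treated as 1 locus.

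The pool was transcribed in vitro and the purified RNA was treated with recombinant METTL3–METTL14, the writer of N6-methyladenosine (m6A), in 2 methylated libraries. The 2 unmethylated libraries came from RNA incubated without the writer. In both groups an m6A antibody was crosslinked to the RNA, and miCLIP2 counted the nucleotides at which reverse transcription was cut short by the crosslink. The pool was designed and no cell was present, so the values describe RNA in a tube.

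In cells, METTL3 is the catalytic subunit of this writer and METTL14 helps to hold the RNA. The complex favours the motif DRACH, where D stands for any base but C, R for a purine and H for any base but G, and at strongly methylated sites the base before the adenosine is most often G. GAAC motifs differ from the favoured GGAC motifs by an A in that place, and they are methylated in cells less often. Only a minority of DRACH adenosines carries m6A in cells.

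The sequences around the loci that carried the result are shown from 14 nt upstream to 14 nt downstream of the selected adenosine, 5′ to 3′, with the motif in capitals. They come from the deposited table, and the coordinates are those of GRCh38. First stand 9 of the loci whose signal rose with methylation, chosen for small p-values and, for BRSK2, for the most counts. ZNF517, which had the smallest p of all, is described by its position and values alone.

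THTPA, chr14:23556998-23557026, plus strand: gaactcacagcgGAACCtacaattgtggc
ICE1, chr5:5464826-5464854, plus strand: caagcgggaaaaGAACActgtcaacgtct
CYTH2, chr19:48470606-48470634, plus strand: gaccttgcaacgGAACCggaagatggcaa
PLAGL1, chr6:143942351-143942379, minus strand: agccccctagcgGAACCaaggaaaagaag
COL5A1 locus, chr9:134824686-134824714, plus strand: cgggaatggcgaGAACTacgtggactacg
PACS2, chr14:105392823-105392851, plus strand: caccaaggagaaGAACAagaagggtgagg
RCCD1, chr15:90961193-90961221, plus strand: tccctggggttgGAACAgacataggcgcg
CYB561A3, chr11:61362107-61362135, minus strand: tcgcgttcacctGAACAtttccgcctcct
BRSK2, chr11:1453515-1453543, plus strand: gttttgaacccaGAACAgacagccgccga

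The next 4 are among the loci of highest signal that did not pass the test, shown because their motif is also GAACA.

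MAGI1, chr3:65356497-65356525, minus strand: cctggacaaaagGAACAgagaggacagag
XPC, chr3:14158712-14158740, minus strand: caaagggaagagGAACAagggaggcagaa
MAEA, chr4:1338473-1338501, plus strand: cagccgctccctGAACAagctggcgcagc
FLNC, chr7:128830631-128830659, plus strand: cgccagcatgatGAACAacagcggctact

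The libraries held 13110615 and 13265092 counts in the methylated group and 10483825 and 12028474 in the unmethylated group, and the members took 4.49% to 4.74% of each. The median member had 634 and 695.5 counts over all its positions in the methylated libraries, against 593.5 and 578.5 in the unmethylated ones. At the selected adenosine itself, 66 of the 202 members had no count in any library. Signal was concentrated, since the 5 loci with the most counts held 42.8% of all counts at the adenosine. Nothing in the labels says that the libraries of a group came from separate reactions, so the p-values speak only of variation among these 4 libraries, which may be technical.

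Over all 202 loci, with no filter, the selected adenosine took 1.91 times as large a share of the members' counts after incubation with the writer. The share was 5.80 and 5.60 per 1000 counts in the methylated libraries, against 3.27 and 2.7 per 1000 in the unmethylated libraries. The 95% Wilson intervals were 5.62 to 6.0 and 5.42 to 5.80 in the methylated libraries, against 3.11 to 3.43 and 2.57 to 2.84 in the unmethylated ones; they cover counting error only, as do all counting intervals given here. Both methylated libraries lay above both unmethylated ones. The means were 5.70 ± 0.142 per 1000 with methylation and 2.99 ± 0.398 per 1000 without (SD, n = 2 libraries each), a ratio of 1.91, with an exact two-sided permutation p of 0.333, the lowest value this design allows. With counts scaled to library size (CPM), the summed signal was 260.4 ± 12.9 in the methylated libraries against 140.3 ± 16.9 in the unmethylated ones (SD, n = 2 each), and the ratio was 1.86.

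The selected adenosine stood apart from its surroundings in this ratio but not in its level. Across the 40 neighbouring positions, up to 20 nt on either side, the ratio of methylated to unmethylated share lay between 0.877 and 1.60, below the 1.91 of the adenosine. At the nucleotide before it the ratio was 1.12, and at the C behind it 0.92. In level, 11 of the 40 neighbours took a larger share than the adenosine in the methylated libraries, and 32 of 40 in the unmethylated ones. The largest share of all lay 2 nt downstream, at 17.3 per 1000 in the methylated libraries and 16 per 1000 in the unmethylated libraries.

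The 3 motifs differed in level more than in ratio. GAACA loci had 11.7 and 10.1 counts per 1000 at the adenosine in the methylated libraries, against 6.16 and 5.09 in the unmethylated ones, a ratio of 1.94. GAACC loci had 3.73 and 4.10 per 1000 in the methylated libraries against 2.06 and 1.80 in the unmethylated ones, a ratio of 2.03. GAACT loci had 2.77 and 2.80 per 1000 in the methylated libraries against 1.31 and 0.901 in the unmethylated ones, a ratio of 2.51. In each motif both methylated libraries lay above both unmethylated ones, and the order of the levels, A over C over T at the last base, was the same in every library for these pooled shares. The GAACT value rested on 1 locus, in COL5A1, which held 63.5% of its counts, and without it the ratio was 1.46. Without its 5 loci of most counts the GAACA ratio was 2.78.

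Most loci had a low signal, as weighting each locus equally shows. Among the 151 loci with at least 100 counts in every library, the mean share was 4.16 and 4.81 per 1000 in the methylated libraries against 2.31 and 2.13 in the unmethylated libraries, a ratio of 2.02. The median locus had 1.39 and 2.24 per 1000 in the methylated libraries against 0.703 and 0.446 in the unmethylated ones. With equal weights the gap between GAACA and GAACC was smaller than in the pooled shares. GAACA was the higher in methylated replicate 1 and in both unmethylated libraries, and GAACC in methylated replicate 2. The 55 GAACA loci averaged 5.43 and 4.99 per 1000 in the methylated libraries against 3.34 and 2.51 in the unmethylated ones. The 78 GAACC loci averaged 3.78 and 5.41 per 1000 in the methylated libraries against 2.0 and 2.15 in the unmethylated ones. For the 18 GAACT loci among them the median was 1.04 and 0.552 per 1000 in the methylated libraries, against 0 in both unmethylated ones.

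Single loci were tested with edgeR's quasi-likelihood test on all sites of all sequences, where a site is 1 position of 1 sequence that reached 10 counts in 2 or more libraries. Of the 202 selected adenosines, 45 passed this filter, 91 had some counts but too few, and the 66 without a count could not be tested. Of the 45 tested, 15 rose and 0 fell after Benjamini-Hochberg adjustment over all 142938 sites (threshold 0.05). Over all sites, 3.7% were called higher and 2.01% lower. Among the selected adenosines of the whole cell-unmodified class, 25.9% of 370 were called higher, and among those of the m6A class 50.3% of 754. The members' share was 33.3%, and the members are themselves part of the 370. At an unadjusted p below 0.05, 27 loci were higher and 0 lower, where over all sites 10.4% were higher and 8.05% lower. DESeq2 called 14 higher, all among the 15, and 0 lower, where over all sites it called 2.13% higher and 1.28% lower. It gave no adjusted p for 10 of the 45, so these could not be called by it.

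Tested loci were mostly deeper than the rest, but the ranges overlapped. Tested members had a median of 18112 counts over all positions and libraries (3872 to 282828), against 1269 in the others (1 to 42516). Of the 45, 14 had reached 10 counts in methylated libraries alone, which selects for a rise, and 7 of the 15 rises were among them. These 7 were THTPA, ICE1, CYTH2, PACS2, RCCD1, TNIP1 and HERC2, so their fold changes and p-values below carry that selection. The other 31 of the 45 had reached 10 counts in a library of each group, and 8 of these 31 rose. The 157 loci under the filter took 1.39 and 1.77 per 1000 of their counts at the adenosine in the methylated libraries, against 0.919 and 1.02 in the unmethylated libraries. The log2 fold changes of the 45 had a median of 1.14, with quartiles of 0.41 and 2.03, and 37 were above 0.

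The rise with the smallest p was at a GAACC within the span of ZNF517, a zinc finger gene, at position 144807820 of chromosome 8, minus strand. Gene names here come from overlap irrespective of strand, so the strand of the gene was not checked. It had 176 and 166 counts in the methylated libraries, against 21 and 15 in the unmethylated ones. The groups were far apart, at 13 ± 0.644 CPM with methylation and 1.63 ± 0.535 CPM without (SD, n = 2 each), and the log2 fold change was 2.98 ± 0.36 SE (edgeR adjusted p = 5.77e-06). Its whole sequence also took more counts with methylation, a mean of 19911.5 against 11727.5 without it, and set against that total the log2 fold change was 2.48 (edgeR adjusted p = 1.32e-05). Sequence totals here and below are raw counts, not scaled to library size, and the methylated libraries were the larger ones.

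The GAACC of THTPA, which encodes thiamine triphosphatase, had 54 and 60 counts in the methylated libraries, against 4 and 4 in the unmethylated ones. Its raw sequence total was nearly the same in both groups, with means of 3706 counts with methylation and 3653.5 without. The log2 fold change was 3.53 ± 0.51 SE (edgeR adjusted p = 6.35e-05), and 3.78 against the sequence total. A GAACC of CYTH2, which encodes a cytohesin that activates ARF GTPases, gave the highest fitted value of the 45, 4.18 ± 0.67 SE (edgeR adjusted p = 2.56e-04). It rested on 31 and 39 counts in the methylated libraries, against 1 and 2 in the unmethylated ones, and the ratio of 19.9 had a 95% counting interval of 6.54 to 98.9. Its raw sequence totals were also nearly equal, at means of 2930 counts with methylation and 2930.5 without, although the methylated libraries were larger. Against the sequence total its log2 fold change was 4.43.

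PLAGL1, an imprinted gene for a zinc finger transcription factor, held the GAACC with the highest signal. It had 16.9 and 21.4 CPM in the methylated libraries, against 5.44 and 5.15 CPM in the unmethylated ones. The adenosine took 19.4 and 26.6 per 1000 counts of its own sequence in the methylated libraries, against 6.75 and 5.37 per 1000 in the unmethylated ones. Its log2 fold change was 1.82 ± 0.30 SE (edgeR adjusted p = 3.24e-04).

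GAACA loci spanned a similar range. In ICE1, which encodes a subunit of the little elongation complex that serves small nuclear RNA transcription, 53 and 64 counts in the methylated libraries stood against 3 and 7 in the unmethylated ones. Its log2 fold change was 3.26 ± 0.50 SE (edgeR adjusted p = 1.34e-04). In TNIP1, whose product binds the ubiquitin-editing enzyme A20 and restrains NF-κB, 24 and 30 counts in the methylated libraries stood against 3 and 1 in the unmethylated ones (edgeR adjusted p = 0.00274), and the count ratio of 11.5 had a 95% counting interval of 4.25 to 43.8. RCCD1 had unequal methylated libraries, with 2.67 and 5.50 CPM there against 0.668 and 0.499 CPM in the unmethylated ones (edgeR adjusted p = 0.00102). So did CYB561A3, of the cytochrome b561 family, with 10.2 and 5.80 CPM in the methylated libraries against 1.34 and 2.24 CPM in the unmethylated ones (edgeR adjusted p = 0.00141). The CYB561A3 sequence also took more counts with methylation, a mean of 9654.5 against 5291 without it, and its log2 fold change of 2.12 was 1.48 against that total (edgeR adjusted p = 0.0213). In both loci each methylated library was still above each unmethylated one.

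PACS2, which encodes a membrane traffic sorting protein, had 3.51 and 4.37 CPM at its GAACA in the methylated libraries, against 0.382 and 0.748 CPM in the unmethylated ones. Here the whole sequence took fewer counts with methylation, a mean of 7339 against 9995 without it. The log2 fold change was 2.72 ± 0.49 SE (edgeR adjusted p = 8.23e-04), and 3.43 against the sequence total. BRSK2, a gene for a kinase of the nervous system, had the most counts of all members, with 37.3 and 26.9 CPM in the methylated libraries against 18.6 and 12.1 CPM in the unmethylated ones. Its change was the smallest of the 15, with a log2 fold change of 1.05 ± 0.29 SE (edgeR adjusted p = 0.0326). The call ended without methylated replicate 1 (log2 fold change 0.75, edgeR adjusted p = 0.380) and without unmethylated replicate 2 (0.80, edgeR adjusted p = 0.159).

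The single GAACT that rose lay on chromosome 9 within both COL5A1, a gene for a fibrillar collagen chain, and LOC101448202. It had 10.1 and 8.74 CPM in the methylated libraries, against 2.86 and 1.5 CPM in the unmethylated ones, a log2 fold change of 2.10 ± 0.36 SE (edgeR adjusted p = 5.66e-04). A GGACT 9 nt downstream in the same RNA had more counts in every library, with 1509 and 1087 in the methylated libraries against 373 and 539 in the unmethylated ones. The other 2 tested GAACT loci had log2 fold changes of 0.41 and 1.04.

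The remaining rises were at GAACC motifs. GATD1 had close replicates, with 10.6 and 11.1 CPM in the methylated libraries against 3.53 and 3.24 CPM in the unmethylated ones and a log2 fold change of 1.65 ± 0.32 SE (edgeR adjusted p = 0.0019). KMT2B, which encodes a histone H3 lysine methyltransferase, had 63 and 54 counts in the methylated libraries against 7 and 17 in the unmethylated ones (edgeR adjusted p = 0.0053). HERC2, a gene for a large ubiquitin ligase, had 23 and 37 counts in the methylated libraries against 4 and 3 in the unmethylated ones (edgeR adjusted p = 0.00509). Its whole sequence took a mean of 1366.5 counts with methylation against 569.5 without, and set against that total its log2 fold change of 2.79 became 1.80 and lost the call (edgeR adjusted p = 0.134). LENG8 had 44 and 31 counts in the methylated libraries against 5 and 13 in the unmethylated ones (edgeR adjusted p = 0.033). Its call was lost against the sequence total (edgeR adjusted p = 0.158), in DESeq2 (adjusted p = 0.137), with each oligonucleotide as a site (edgeR adjusted p = 0.0521), without methylated replicate 1 (edgeR adjusted p = 0.277) and without unmethylated replicate 1 (edgeR adjusted p = 0.152). HERC2 also missed the threshold without methylated replicate 2 (edgeR adjusted p = 0.0957).

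With every site set against the total of its sequence, 14 members were called higher and 0 lower, 13 of them among the 15. Over all sites, this setting called 1.8% higher and 0.405% lower. The locus it added was the GAACA of MAGI1, a gene for a scaffold protein of cell junctions. MAGI1 had 29.2 and 26 CPM in the methylated libraries against 15.7 and 18.2 CPM in the unmethylated ones, a log2 fold change of 0.67 ± 0.27 SE that missed the threshold (edgeR adjusted p = 0.173). Its sequence total was lower with methylation, a mean of 11480 counts against 14213 without it. The adenosine took 29.5 and 34.6 per 1000 of them in the methylated libraries, against 13.7 and 13.4 per 1000 in the unmethylated ones, and against the total the log2 fold change was 1.24 ± 0.23 SE (edgeR adjusted p = 0.0013).

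Other loci among those of highest signal showed no called change. At the GAACA of XPC, which encodes a DNA damage sensor of nucleotide excision repair, the methylated libraries had 252 and 181 counts, against 274 and 190 in the unmethylated ones, and the groups overlapped. The sequence total was lower with methylation, a mean of 10685 counts against 20850.5 without it. As a share of its sequence the adenosine took 22.8 and 17.5 per 1000 in the methylated libraries, against 15.4 and 7.96 per 1000 in the unmethylated ones, with no overlap. Its log2 fold change was -0.37 ± 0.30 SE in CPM terms and 0.80 ± 0.27 SE against the sequence total, and neither passed (edgeR adjusted p = 0.574 and 0.146). A GAACA on chromosome 19 in both C19orf44 and CHERP changed sign in the same way, with log2 fold changes of -0.11 in CPM terms and 0.71 against its sequence total, neither called (edgeR adjusted p = 0.908 and 0.279). KBTBD11, whose GAACC is at position 2001155 of chromosome 8, had 8.77 and 6.71 CPM in the methylated libraries against 15.1 and 8.06 CPM in the unmethylated ones, and its log2 fold change stayed below 0 in both settings (-0.59 and -0.46, edgeR adjusted p = 0.343 and 0.595).

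MAEA, a gene for a subunit of a ubiquitin ligase complex, had 12.9 and 8.44 CPM in the methylated libraries, against 6.01 and 4.24 CPM in the unmethylated ones. Its log2 fold change of 1.04 ± 0.33 SE just missed the threshold (edgeR adjusted p = 0.0629), and it was 0.48 against the sequence total, whose mean was 4164.5 counts with methylation and 2398 without. The adenosine took 41.1 and 26.6 per 1000 of its sequence's counts in the methylated libraries, against 29.8 and 19 per 1000 in the unmethylated ones, and these groups overlapped. FLNC, which encodes the muscle filamin, had 7.63 and 5.65 CPM in the methylated libraries against 3.34 and 3.24 CPM in the unmethylated ones, and a log2 fold change of 0.99 ± 0.34 SE (edgeR adjusted p = 0.0989).

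Of the 45 tested loci, 33 had both methylated shares of their own sequence above both unmethylated shares, and 1 had both below. Over all tested sites these arrangements held for 22.1% and 20.2%. The 33 included all 15 that were called. All 14 loci that had reached the minimum in methylated libraries alone were among the 33, an arrangement that this way of passing favours. Of the 31 that had reached it in both groups, 19 had both methylated shares above, 1 had both below and 11 overlapped.

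The tag copies gave similar pooled values. Each copy of the pool, taken on its own over the 202 loci, gave a ratio of methylated to unmethylated share between 1.80 and 2.09. At the level of oligonucleotides, 69 copies from 39 loci could be tested, of which 21 were higher and 0 lower by edgeR, where 3.8% of all such sites were higher and 1.84% lower. They came from 16 loci, 14 of them among the 15 called after summing. In none of the 9 loci with all 3 copies tested were all 3 called. Log2 fold changes of pairs of copies had Pearson's r of 0.765 (14 loci), 0.688 (13 loci) and 0.924 (12 loci), a description over loci that share the same 4 libraries.

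Loci with the same motif that had been found methylated in HEK293T cells took a larger share of counts at the adenosine, with and without the writer. The 290 such loci had 12.8 and 12 per 1000 in the methylated libraries, against 6.53 and 7.56 per 1000 in the unmethylated ones. The members lay below them in all 4 libraries, with log2 differences in share of -1.14 and -1.10 in the methylated libraries and -1.0 and -1.48 in the unmethylated ones. The size of this gap depended on the motif. For GAACA the mean log2 difference in share was -0.32 in the methylated libraries and -0.13 in the unmethylated ones. It was -1.17 and -0.48 for GAACC, and -2.19 and -2.83 for GAACT. With loci of all motifs weighted equally the gap in level was smaller than the pooled one. The means were 4.49 per 1000 in the members and 6.81 in the cell-methylated loci after methylation, and 2.22 and 3.06 without it. No difference in the ratio was resolved between these sets. The members' log2 ratio exceeded that of the cell-methylated loci by 0.12, less than the 0.34 spread between replicates (exact permutation p = 1 over the 4 libraries). One locus held 43.2% of the cell-methylated counts, and without the locus of most counts in each set the difference was -0.22. Without the 5 loci of most counts in each set it was -0.03.

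Motif by motif the direction depended on single loci for GAACT. For GAACA and GAACC the members' log2 ratio was lower than that of cell-methylated loci, with differences of -0.19 and -0.69, and for GAACT it was higher, with a difference of 0.64. Each has an exact permutation p of 0.333. Without the locus of most counts in each set, the members' ratio was the lower one in all 3 motifs, at 1.87 against 2.53 for GAACA, 1.85 against 2.47 for GAACC and 1.46 against 2.04 for GAACT. The same comparison by motif with more loci left out of both sets is not given here. The cell-methylated set was mostly GAACT (209 of 290), the motif that is rarest among the members. Of the 88 cell-methylated loci that could be tested, 36 were called higher (40.9%), and 26 of the 88 had reached the minimum in methylated libraries alone. Among the other 62, 22 were called.

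Against loci of their own class with G in place of the A before the adenosine, the members' pooled ratio was lower. The 299 GGAC loci unmodified in cells had 8.97 and 8.75 per 1000 in the methylated libraries, against 3.43 and 3.70 in the unmethylated ones, a ratio of 2.49. The difference in log2 ratio, members minus GGAC loci, was -0.37, which exceeded the 0.27 spread between replicates, with an exact permutation p of 0.333, the lowest possible here. It was -0.18 without unmethylated replicate 1 and -0.57 without unmethylated replicate 2. In the unmethylated libraries the members were closer to these loci than in the methylated ones. The log2 differences in share were -0.63 and -0.64 in the methylated libraries, against -0.07 and -0.45 in the unmethylated ones. Of 91 such loci tested, 47 were called higher (51.6%), and 31 of the 91 had reached the minimum in methylated libraries alone. Among the other 60, 25 were called. Among the 31 such members 8 were called, and the difference in these counts was not tested.

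Bystander motifs within the members' own RNA were also called higher at part of the tested sites, and the differences between motifs were not tested. A GGAC followed by A, C or T occurred elsewhere in 79 of the 202 sequences (39.1%, against 43.5% of all sequences of the table), and a further GAAC followed by these bases in 69 (34.2% against 31.5%). Motifs were searched on the RNA strand only. Of 40 tested bystander GGAC adenosines 24 were higher and 0 lower, with a median log2 fold change of 2.03. Of 20 tested bystander GAAC adenosines 8 were higher and 0 lower, with a median of 1.16, close to the 1.14 of the selected ones. Of 57 tested DRACH adenosines with A or U 2 nt upstream, 11 were higher and 0 lower, with a median of 0.67. Over all sites, 3.7% were called higher and 2.01% lower. How many of the tested bystander sites had reached the minimum in methylated libraries alone, which selects for a rise, was not counted. Pooled shares per adenosine were 19.6 and 18.4 per 1000 in the methylated libraries against 6.29 and 6.94 in the unmethylated ones at bystander GGAC, a ratio of 2.88. At bystander GAAC the ratio was 2.78, and 2.01 without the sequence of most counts. The order of these motifs in pooled ratio was not stable, since without the 5 sequences of most counts it was 2.62 at GGAC and 2.89 at GAAC.

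Features that the choice of members did not use were compared as pooled values without a test. By the base 3 nt downstream of the adenosine, loci with U had a ratio of 3.33 (49 loci; 2.82 without the locus of most counts), against 1.79 with A, 1.70 with C and 1.84 with G. Without the locus of most counts these 3 were 2.23, 1.40 and 1.71, so the gap between U and A narrowed. The U loci had 3.82 and 3.73 per 1000 in the methylated libraries, against 1.03 and 1.24 in the unmethylated ones. The C loci had 2.91 and 2.88 per 1000 in the methylated libraries, against 1.57 and 1.84 in the unmethylated ones. The U loci had the lowest share of any base in the unmethylated libraries, and the C loci had the lowest in the methylated ones. Whether the low unmethylated level accounts for the ratio with U was not tested. Calls were made at 4 of 9 tested loci with U there, 5 of 16 with A, 2 of 8 with C and 4 of 12 with G, beside the 15 of 45 over all. By the base 3 nt upstream the ratio was 2.57 with U, 2.20 with A, 2.06 with C and 1.66 with G.

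Predicted pairing went with the level rather than the ratio. The selected adenosine had a median predicted unpaired probability of 0.901, and loci above it had 8.49 and 8.63 per 1000 in the methylated libraries, against 4.97 and 4.08 in the unmethylated ones. Loci at or below it had 3.56 and 3.09 per 1000 in the methylated libraries against 1.74 and 1.48 in the unmethylated ones. The ratios were 1.89 above the median and 2.07 at or below it. Over the 45 tested loci, Spearman's rho between the log2 fold change and the unpaired probability was -0.11. By GC content of the sequence (median 56%), the ratio was 1.84 above the median and 2.90 at or below it (2.47 without the locus of most counts), and rho over the tested loci was -0.32. The log2 fold change also went down with the unmethylated share of the adenosine (rho = -0.45), a value that is itself the denominator of the change. All these points share the same 4 libraries.

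A GGAC motif upstream in the same RNA went with a higher ratio (2.48 in 36 loci, against 1.74 in the 166 without; 3.17 and 1.67 without the locus of most counts in each). For a GGAC downstream, which reverse transcription reaches first, the ratios were 1.86 in 52 loci and 1.91 in the other 150, and 1.80 and 2.26 without the locus of most counts in each. One pair of members overlapped, 30 nt apart on chromosome 22 within ADORA2A and its overlapping transcripts. They had log2 fold changes of 1.61 and 1.49, neither called (edgeR adjusted p = 0.134 and 0.210), and are not independent. Of the 202 members 200 lay in an annotated gene and 179 in exactly 1. These 179 carried 173 different symbols, so they seldom lay in the same gene. Transcripts were not assigned.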

How the data were processed

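Raw counts per nucleotide position were deposited by the authors, without normalization, in 1 table with 141 positions per oligonucleotide and library. FastQC 0.11.8, STAR 2.7.3a and bedtools 2.27.1 appear in the submitters' processing notes. What each did, whether duplicates were removed, and the build were not given in the sources used here. Table coordinates were checked against RefSeq promoter sequences of GRCh38.p14: of 128 selected loci matched over 40 nt, 126 had base 51 at the stated position. Gene symbols came from overlap with RefSeq genes, irrespective of strand, and only where 1 gene overlapped.

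Tag copies were summed. Sites that reached 10 counts in 2 or more of the 4 libraries entered a two-sided quasi-likelihood F test (edgeR 4.0.16, R 4.3.3) with TMM scaling and group as the only term. Standard errors are the log2 fold change over the square root of F. Replicates were kept apart, since their sequence totals were further apart than counting allows (chi-square per degree of freedom 39 in the methylated and 44.9 in the unmethylated pair). Alternatives were DESeq2 1.42.0, other scalings, filters and weights, tag copies as sites, a replicate block and each library left out. Pairing was predicted with ViennaRNA 2.7.2 on the 141-nt sequence. Tests were tried on simulated data first. Members, tests, alternatives and the rule for named loci (rises up to 15 by p, falls up to 5, the highest CPM per motif, and the 6 uncalled loci of highest CPM) were chosen with earlier results of these data known.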

Additional observations from a re-analysis of the deposited data

How the results depend on the processing

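The count of 15 rises lay between 10 and 17 under all alternatives, and the count of falls was 0 in each. The lowest, 10, came with a minimum of 50 counts in 2 libraries, which by construction tests fewer loci. Except for DESeq2, sequence totals and oligonucleotides as sites, the share of all sites called under each alternative is not given here. The counts alone therefore do not tell whether calls rose or fell everywhere. The replicate block gave 15 rises and 0 falls. Sequence totals of libraries with the same replicate number deviated in opposite directions (r = -0.36 over 3108 sequences), and a crossed replicate block, chosen after seeing the data, gave 17 rises. Of the 15 rises 12 stayed called wherever they could be tested; BRSK2, HERC2 and LENG8 did not. The uncalled MAEA passed under 4 alternatives and MAGI1 under 2. XPC turned to 0.80 against sequence totals and ranged from -0.68 to 0.0017 with 1 library left out, and the chromosome 19 locus in C19orf44 and CHERP turned to 0.71 and ranged from -0.30 to 0.11.

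Without the 5 loci of most counts, the pooled ratio was 2.22 as a share and 2.24 in CPM, 2.78 for GAACA, 3.46 for GAACT, and 2.62 at bystander GGAC and 2.89 at bystander GAAC, the opposite of their order with all loci. The GAACT value rests on few counts. Before any removal the GAACT loci had 187 and 172 counts at the adenosine in the methylated libraries, and 61 and 48 in the unmethylated ones. Without the 1 locus of most counts the pooled ratio was 1.46 for GAACT and 2.01 at bystander GAAC. The difference from cell-methylated loci was -0.22 without 1 locus in each set and -0.03 without 5. With loci weighted equally the bystander ratios were 3.43 and 2.40. The cause was not tested. Paired ratios (replicate block) were 1.92 as a share and 1.86 in CPM. Leaving out 1 library gave share ratios from 1.75 to 2.11, and a difference from cell-methylated loci from -0.12 to 0.36. The count minimum at the adenosine was reached by 45 of 202 loci, so the main test says nothing for or against a change at any single one of the others. Pooled, those 157 loci had a ratio of methylated to unmethylated share of 1.63.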

Other observations

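A few neighbouring positions of the members also had a ratio well above 1. At 9 nt downstream it was 1.60, and 1.31 without the COL5A1 locus, which has its GGACT there. At 6 nt upstream it was 1.37. A chromosome 3 locus outside annotated genes, with the adenosine of a GTAAC there, had 2554 and 2361 counts in the methylated libraries against 1080 and 1295 in the unmethylated ones, and without it the ratio was 1.11. At 18 nt upstream it was 1.36. The COL5A1 locus has a GGACG there with 261 and 282 counts in the methylated libraries against 22 and 22 in the unmethylated ones, and the ratio was 1.10 without that locus.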
